A study of Mus musculus with 8 samples.

Results

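The 10 genes described here encode RNA-binding proteins that set how long cytokine mRNAs last in a cell. They were taken by name from the 21080 gene symbols of the study and are Zfp36, Zfp36l1, Zfp36l2, Elavl1, Hnrnpd, Khsrp, Zc3h12a, Rc3h1, Rc3h2 and Tia1. All 10 were measured above the low-value filter in every comparison. RNA-seq was done on bone marrow-derived macrophages (BMDMs), which are macrophages grown from mouse bone marrow in culture. Nudt21-cKO mice carried Nudt21 fl/fl and LysM-Cre, a Cre driven by the lysozyme M gene of myeloid cells, and the WT controls were sex-matched littermates that carried LysM-Cre as well. All mice were on the C57BL/6 background, and the age of the mice whose marrow was used was not stated. BMDMs were left untreated (0 h) or received IFNγ overnight and then LPS for 4 h, a treatment that activates macrophages. Each of the 4 groups held 2 samples, and each sample pooled the cells of 2 mice. The samples are numbered 1 and 2 in WT against 3 and 4 in cKO at both times.

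Many short-lived cytokine mRNAs carry AU-rich elements, repeats of an ATTTA core in the 3'UTR. Proteins of the ZFP36 family bind these elements and bring in the enzymes that shorten the poly(A) tail, whereas HuR, the product of Elavl1, binds the same kind of element and protects the mRNA. A further route reads short stem-loops in the 3'UTR, through the endonuclease Regnase-1 (Zc3h12a) and the Roquin proteins (Rc3h1 and Rc3h2). NUDT21 is a subunit of the cleavage factor that binds TGTA (UGUA in RNA) near poly(A) sites and thereby takes part in choosing where a 3'UTR ends, which sets how many such elements an mRNA keeps.

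The deposited value of a gene is its mean read coverage per base, which makes levels of different genes comparable per length. Summed coverage was 14950347 to 17954882 per sample, yet the median gene had a coverage of 149 to 166 at 0 h and 49.8 to 70.4 at 4 h. Differences are given as log2 fold changes with a standard error (SE) after each sample was scaled to the same median gene. For the 10 genes the value on the deposited scale stands beside them where it changes a call or a direction. A gene passed the test when limma gave it a Benjamini-Hochberg adjusted p under 0.05 over all genes tested. All 8 macrophage markers on the list were present in every group, with a summed scaled coverage of 78020 to 84430 in WT and 78010 to 78320 in cKO at 0 h, and 106100 to 127100 in WT and 97620 to 107000 in cKO at 4 h. Without overlap between the groups, 6 of the 8 were lower and 2 higher in cKO at 0 h. Of all genes 57.6% did not overlap at 0 h (28.3% lower and 29.2% higher). The higher Cd68 makes up for the lower markers in the sum. At 0 h scaled Adgre1 was 13030 and 15998 in WT against 8747 and 8389 in cKO, whereas Cd68 was 29455 and 28066 against 43935 and 43073. At 4 h Adgre1, Csf1r, Itgam and Fcgr1 were lower in cKO without overlap, Cd68, Lyz2 and Mertk were higher, and Cd14 overlapped. After stimulation 62.8% of all genes did not overlap (35% lower and 27.9% higher). Dendritic cell markers had a summed scaled coverage of 57.68 to 111.4 in WT and 35.6 to 49.33 in cKO at 4 h. At 0 h these sums were 5.33 to 9.547 and 4.523 to 6.04. Neutrophil and progenitor markers were present too, with a summed scaled coverage of 14540 to 15950 in WT and 16490 to 20330 in cKO at 0 h, above WT in both cKO samples, and 34200 to 35730 in WT and 30220 to 35340 in cKO at 4 h, although Ly6g, which marks mature neutrophils, lay between 0 and 7.43 and was 0 in the cKO samples at 0 h. Of the T cell markers, Cd3e and Cd8a lay at or near 0, while Cd4 had a scaled coverage of 112 and 129 in WT against 88.8 and 85.8 in cKO at 0 h and 19 to 38.9 at 4 h, and the B cell markers lay at or near 0. In such bulk samples fewer cells of a type and less RNA per cell cannot be told apart, and the part of these markers or of neutrophil and progenitor cells in the values below was not tested.

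Nudt21 itself followed the labels. Its deposited coverage was 718 and 641 in WT against 158 and 172 in cKO at 0 h, and 547 and 575 in WT against 142 and 115 in cKO at 4 h. Every cKO sample lay below every WT sample, with a log2 fold change of −2.13 ± 0.134 (SE, adjusted p = 0.00318) at 0 h and −2.49 ± 0.131 (SE, adjusted p = 0.00125) at 4 h.

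The annotated 3'UTRs of the 10 genes differed in length and in the elements they hold, and the sequences below are shown because mRNAs that encode regulators of cytokine mRNA decay carry AU-rich elements themselves. In the GENCODE M21 annotation of GRCm38 the longest 3'UTR of a coding transcript was 7181 bases in Rc3h1, 5429 in Hnrnpd, 5331 in Rc3h2, 4218 in Elavl1 and 3038 in Tia1. It was 1835 bases in Zfp36l1, 1822 in Zfp36l2, 1642 in Khsrp, 856 in Zc3h12a and 774 in Zfp36, against a median of 1088 over the 16359 genes of the tables that matched. The nonamer TTATTTATT, which contains both TATTTAT and ATTTA, was found on the transcript strand in 6 of the 10 3'UTRs. It occurred 8 times in Elavl1, most of them in overlapping repeats, and 1 time each in Zfp36, Zfp36l1, Zfp36l2, Rc3h1 and Rc3h2. It is present in 8.1% of all 3'UTRs matched. Among 3'UTRs of a length like the gene's own, the share was 18.3% for Elavl1, 27.3% for Rc3h1 and 22.4% for Rc3h2. For the ZFP36 family it was 4.35% (Zfp36), 9.93% (Zfp36l1) and 9.75% (Zfp36l2). These sites are shown 5′ to 3′ on the transcript strand, with the first nonamer of each 3'UTR in capitals and 9 bases on either side.
Zfp36 (chr7:28376952-28376978, minus strand): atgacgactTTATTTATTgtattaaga
Zfp36l1 (chr12:80108168-80108194, minus strand): actgttggaTTATTTATTttagaaatt
Zfp36l2 (chr17:84184915-84184941, minus strand): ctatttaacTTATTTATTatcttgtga
Elavl1 (chr8:4285789-4285815, minus strand): tcatgaaaaTTATTTATTtatttattt
Rc3h1 (chr1:160970044-160970070, plus strand): ctttactcaTTATTTATTgagatgagg
Rc3h2 (chr2:37373288-37373314, minus strand): aaagacattTTATTTATTttactctgt

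The shorter forms were spread more widely. TATTTAT, present in 29.2% of all 3'UTRs, was also found in Tia1, and ATTTA, present in 67.7%, was found in all 10. Rc3h2 held 25 ATTTA and Rc3h1 held 20, against medians of 9 and 13 in 3'UTRs of like length (80 to 125% of the gene's own). Khsrp held 1, against a median of 2. TGTA, the element that NUDT21 binds, is present in 87.6% of all 3'UTRs and was found in all 10, from 3 times in Zfp36 to 54 times in Rc3h2. Rc3h1 held 40 TGTA, against a median of 39 at like length, and Tia1 held 20, against a median of 16. The last TGTA before the annotated end is shown for these 2 genes because both differed between genotypes after stimulation (below), with TGTA in capitals, at 77 bases from the end in Rc3h1 and 47 in Tia1.
Rc3h1 (chr1:160974889-160974910, plus strand): cttttggatTGTAaatatatga
Tia1 (chr6:86433346-86433367, plus strand): ctccacatgTGTAcaccctccc

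A match of these letters is a description of the annotated sequence. Gene-level coverage does not show which 3'UTR end was in use, so 3'UTR length in these cells was not analysed here.

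Before stimulation Zfp36l2 was the most abundant of the 10 mRNAs, and after stimulation Zc3h12a was. Mean deposited coverage of Zfp36l2 was 4931 in WT at 0 h, above 97.3% of the 15945 genes detected at or over the filter. Khsrp, Hnrnpd and Zfp36l1 followed at means of 1151, 1072 and 1004, and their sample values overlapped. Elavl1 at 586, Zc3h12a at 550, Tia1 at 416, Rc3h1 at 379 and Rc3h2 at 280 came next, with overlap only between Tia1 and Rc3h1. Zfp36 was lowest at 108, above 44.8% of genes. In WT at 4 h the order ran from Zc3h12a at 3508, above 95.1% of genes, through Hnrnpd at 1156, Elavl1 at 868, Zfp36 at 616, Khsrp at 398 and Rc3h1 at 397.8 to Rc3h2 at 297, Zfp36l2 at 216, Zfp36l1 at 114 and Tia1 at 65.4. Only Khsrp and Rc3h1 among these neighbours overlapped in their sample values.

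**Figure D1:**
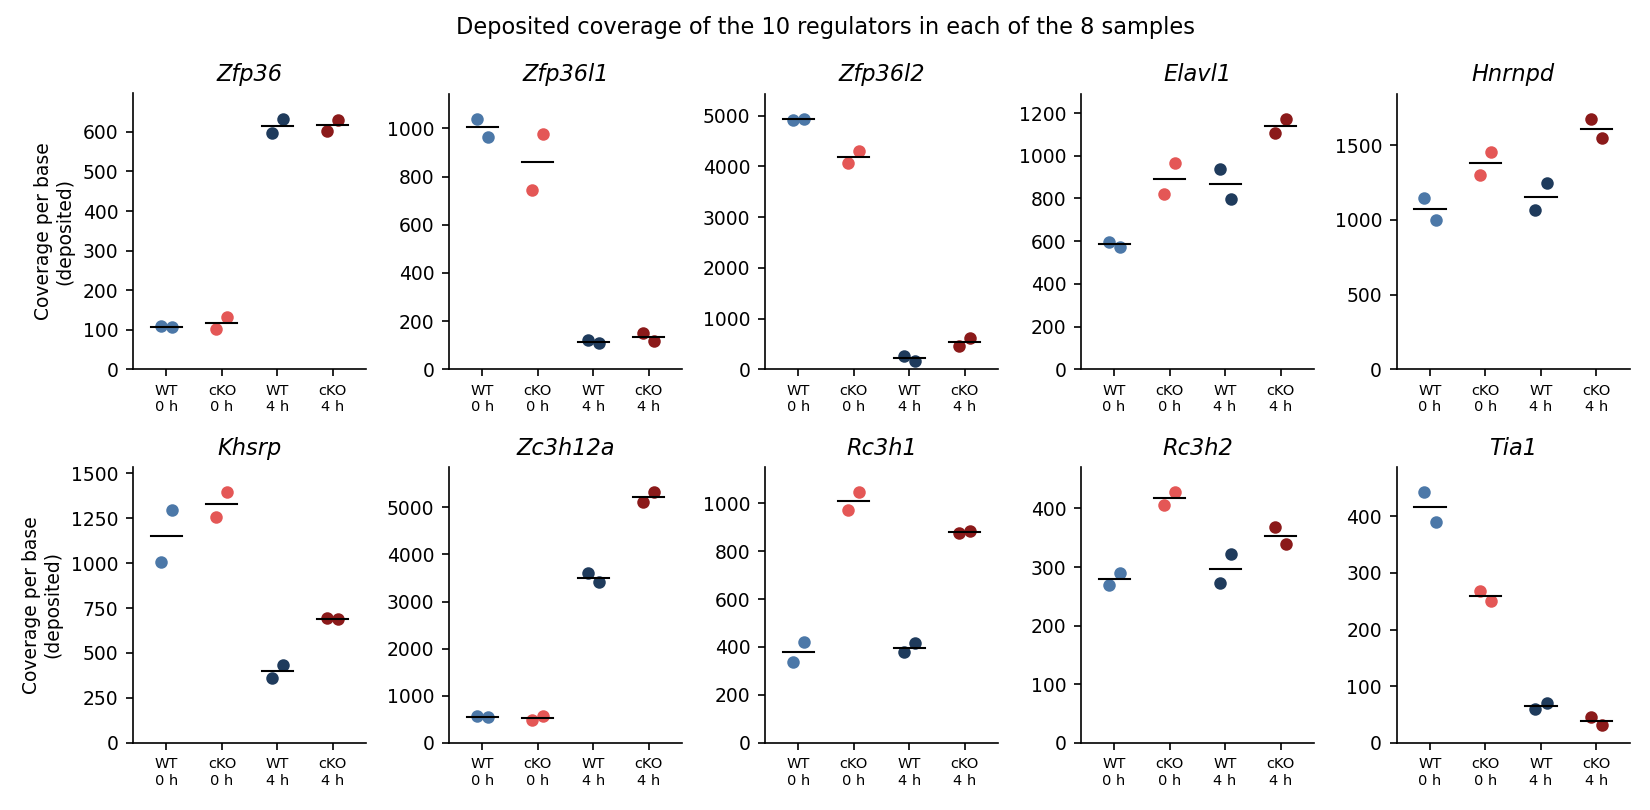
Deposited mean coverage per base (vertical axis, linear, from 0) of each of the 10 genes in the 2 samples of each group (points) with the group mean (line). Rc3h1 was higher in every cKO sample than in every WT sample at both times, Tia1 was lower, and Zfp36 and Zc3h12a stood far higher at 4 h than at 0 h.

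The first question was which of these regulators differed between cKO and WT cells. In untreated BMDMs 1 of the 10 genes passed the test, Rc3h1, which was higher in cKO. Over all 16251 genes 5.35% passed, 3.03% higher and 2.32% lower, and 5.52% passed on the deposited scale, where Rc3h1 was again the gene that passed. Scaled values of the groups did not overlap for 8 of the 10 genes, 4 higher and 4 lower, where 57.6% of all genes did not overlap (29.2% higher and 28.3% lower). Across the 10 genes the median log2 fold change was 0.07, against 0.01 over all genes. After IFNγ/LPS 2 genes passed, Rc3h1 again higher and Tia1 lower, while 20.8% of 14950 genes passed, 9.37% higher and 11.4% lower. Groups did not overlap for 8 of the 10 genes, 5 higher and 3 lower, against 62.8% of all genes (27.9% higher and 35% lower). On the deposited scale 5 genes passed at 4 h, Rc3h1, Zfp36l2, Khsrp and Zc3h12a higher and Tia1 lower, where 27.4% of all genes passed, 23.2% higher and 4.14% lower. That scale moved the median of all genes at 4 h to 0.31 and the share of calls that were higher from 45.1% to 84.9%, so that these 4 higher calls are read against it.

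**Figure D2:**
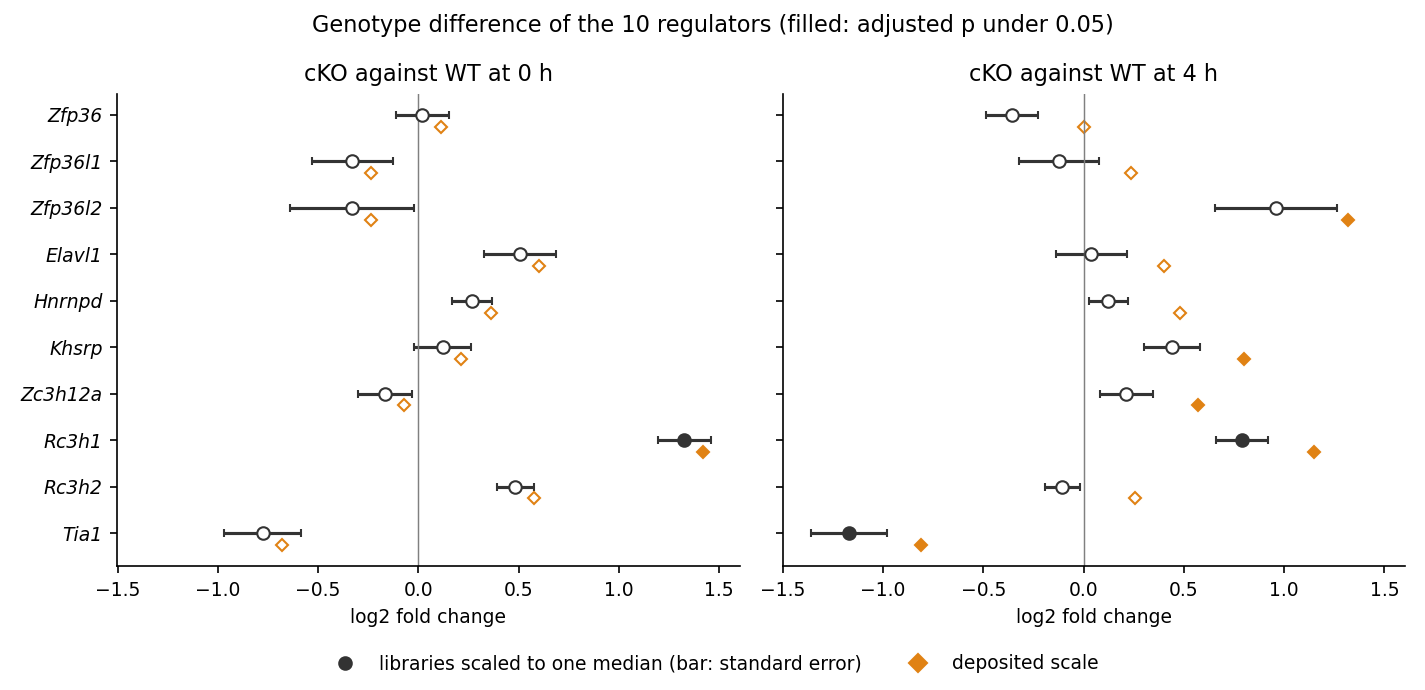
Log2 fold change of the 10 genes in cKO against WT at 0 h (left) and 4 h (right), scaled to the same median gene (circles, with the SE as bar) and on the deposited scale (diamonds, without error), filled where the adjusted p was under 0.05. Rc3h1 was filled at both times on both scales and Tia1 at 4 h on both scales, and all diamonds at 4 h lay to the right of their circles.

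Rc3h1 (chr1:160906418-160974978, plus strand, 20 exons) encodes Roquin-1, which binds stem-loops in the 3'UTRs of mRNAs such as Tnf and Icos and recruits the deadenylase complex. Its deposited coverage at 0 h was 338 and 419 in WT against 970 and 1047 in cKO. After stimulation it was 380 and 415 in WT against 876 and 886 in cKO. Both cKO samples were above both WT samples at each time. The scaled log2 fold change was 1.33 ± 0.134 (SE, 2.51-fold, adjusted p = 0.0127) at 0 h and 0.79 ± 0.131 (SE, 1.73-fold, adjusted p = 0.0183) at 4 h, and 1.42 and 1.15 on the deposited scale. The scaled difference between the times, −0.54 ± 0.189 (SE), did not pass (adjusted p = 0.196). The call was lost without cKO sample 3 or 4, fits that leave 1 cKO sample at that time. The log2 fold change was then 1.326 and 1.325 at 0 h and 0.8171 and 0.7603 at 4 h. In fits to the 4 samples of one time the adjusted p was 0.0915 at 0 h and 0.0841 at 4 h. Over all alternatives the adjusted p ran from 0.00177 to 0.0915 at 0 h and from 0.00287 to 0.0894 at 4 h, and the direction was the same in each of them.

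Rc3h2 (chr2:37370069-37422903, minus strand) encodes Roquin-2, a paralog that shares targets with Roquin-1. Coverage of Rc3h2 was 269 and 290 in WT against 406 and 428 in cKO at 0 h, with no overlap. The log2 fold change of 0.48 ± 0.0912 (SE) did not pass (adjusted p = 0.0538, range 0.0165 to 0.163 over alternatives). At 4 h the values were 272 and 322 in WT against 369 and 339 in cKO, above WT as deposited but below WT once scaled (log2 fold change 0.25 and −0.11, adjusted p = 0.187 and 0.423). The change of the scaled genotype difference from 0 h to 4 h was −0.59 ± 0.129 (SE) and did not pass (adjusted p = 0.0934).

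Zc3h12a (chr4:125118423-125127840, minus strand) encodes Regnase-1, an endonuclease that cleaves mRNAs such as Il6 and is itself induced by inflammatory signals. Its coverage was 561 and 540 in WT against 487 and 563 in cKO at 0 h, where the deposited values overlapped. After stimulation it was 3607 and 3410 in WT against 5103 and 5324 in cKO, both cKO samples above both WT samples. The genotype difference at 4 h was 0.21 ± 0.132 (SE, adjusted p = 0.303) when scaled and 0.57 (adjusted p = 0.0202) as deposited. At 0 h it was −0.17 ± 0.135 (SE, adjusted p = 0.545).

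The ZFP36 family, the decay-promoting readers of AU-rich elements, held no member that passed the scaled genotype test at either time. Zfp36 (chr7:28376784-28380253, minus strand) encodes tristetraprolin, whose own mRNA is among its known targets. Coverage of Zfp36 was 109 and 106 in WT against 102 and 133 in cKO at 0 h, and 597 and 634 in WT against 603 and 631 in cKO at 4 h. The cKO values enclosed those of WT at 0 h and lay within them at 4 h on the deposited scale. Scaled, the log2 fold change was 0.02 ± 0.132 (SE, adjusted p = 0.957) at 0 h and −0.36 ± 0.129 (SE, adjusted p = 0.114) at 4 h (0.00352 as deposited), the latter with both cKO samples below both WT samples.

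Zfp36l1 (chr12:80107754-80113013, minus strand), whose product acts on the same elements, had a coverage of 1041 and 966 in WT against 744 and 976 in cKO at 0 h. It was 121 and 108 in WT against 152 and 119 in cKO at 4 h. Its scaled log2 fold changes were −0.33 ± 0.201 (SE, adjusted p = 0.427) and −0.12 ± 0.198 (SE, adjusted p = 0.686), and the latter was 0.24 as deposited.

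Zfp36l2 (chr17:84183931-84187947, minus strand), the third member of the family, had the highest coverage at 0 h, 4919 and 4942 in WT against 4065 and 4296 in cKO. At 4 h 260 and 172 remained in WT and 457 and 609 in cKO, so that both cKO samples were lower than WT before stimulation and higher after it. The genotype difference was −0.33 ± 0.309 (SE, adjusted p = 0.601) at 0 h and 0.96 ± 0.306 (SE, adjusted p = 0.0851, 0.0187 on the deposited scale) at 4 h. At 4 h the value was 1.38 (adjusted p = 0.0294) without WT sample 1 and 0.54 (adjusted p = 0.145) without WT sample 2, and over all alternatives the adjusted p ran from 0.0187 to 0.293. The change of the genotype difference between the times was 1.29 ± 0.437 (SE) and did not pass (adjusted p = 0.185).

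The other AU-rich element readers, Elavl1, Hnrnpd and Khsrp, had a higher mean deposited coverage in cKO than in WT at both times, without passing the scaled test. Elavl1 (chr8:4285382-4325413, minus strand), which encodes HuR, had a coverage of 598 and 575 in WT against 820 and 965 in cKO at 0 h, and 939 and 796 in WT against 1107 and 1174 in cKO at 4 h. Deposited values did not overlap at either time, whereas the scaled values overlapped at 4 h. The scaled log2 fold change was 0.51 ± 0.178 (SE, adjusted p = 0.185) at 0 h and 0.04 ± 0.175 (SE, adjusted p = 0.896) at 4 h.

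Hnrnpd (chr5:99955935-99978938, minus strand) encodes AUF1, which in most settings speeds the decay of AU-rich mRNAs. Its coverage was 1143 and 1000 in WT against 1299 and 1456 in cKO at 0 h, and 1064 and 1248 in WT against 1678 and 1545 in cKO at 4 h, without overlap at either time. The scaled log2 fold change was 0.27 ± 0.1 (SE, adjusted p = 0.209) at 0 h and 0.12 ± 0.0969 (SE, adjusted p = 0.402) at 4 h, and the latter was 0.48 as deposited (adjusted p = 0.0556).

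Khsrp (chr17:57021051-57031522, minus strand) encodes KSRP, which recruits the decay machinery to AU-rich mRNAs. Its coverage was 1008 and 1294 in WT against 1258 and 1396 in cKO at 0 h, where the groups overlapped. After stimulation it was 362 and 434 in WT against 694 and 687 in cKO, where they did not. The log2 fold change was 0.12 ± 0.142 (SE, adjusted p = 0.693) at 0 h and 0.44 ± 0.139 (SE, adjusted p = 0.0835) at 4 h, and the latter was 0.80 as deposited (adjusted p = 0.0254).

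Tia1 (chr6:86404219-86433405, plus strand, 13 exons) encodes a translational repressor that binds U-rich and AU-rich stretches, Tnf mRNA among them, and gathers in stress granules. Its coverage was 443 and 389 in WT against 268 and 250 in cKO at 0 h, and 60.0 and 70.8 in WT against 44.7 and 30.9 in cKO at 4 h. Both cKO samples were below both WT samples at each time. The scaled log2 fold change was −0.78 ± 0.193 (SE, 1.71-fold lower) at 0 h, which did not pass (adjusted p = 0.0972, range 0.0415 to 0.324 over alternatives). In stimulated cells it was −1.17 ± 0.19 (SE, 2.25-fold lower, adjusted p = 0.0174) and −0.81 on the deposited scale (adjusted p = 0.0428). Without WT sample 1 the adjusted p at 4 h was 0.053, without cKO sample 4 it was 0.0518, and in the fit to the 4 samples of that time 0.106, in a range of 0.00395 to 0.106 over all alternatives. The difference between the times, −0.39 ± 0.272 (SE), did not pass (adjusted p = 0.46).

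None of the 10 genes passed limma's test of a genotype difference that changed between the times, a test that 2.27% of 16284 genes passed. At an unadjusted p under 0.05 there were 3, Rc3h1, Rc3h2 and Zfp36l2, where 3534 of the 16284 genes lay under it. With a variance trend 1 passed, Rc3h2, as did 1147 of all genes (adjusted p = 0.0356, range 0.0356 to 0.365 over alternatives). Annotated genes overlap 9 of the 10, all but Zc3h12a. Gm44790 overlaps Tia1, and Gm37052, Gm37653 and Gm37809 overlap Rc3h1, and Snord90 overlaps Rc3h2, on the same strand. Overlaps with Zfp36, Zfp36l1, Zfp36l2, Elavl1, Hnrnpd and Khsrp lie on the opposite strand, which the library kit does not mark. The part of reads from these transcripts in the coverage of the 10 genes was not tested.

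The second question was how the regulators responded to IFNγ/LPS. After scaling 9 of the 10 passed the test in WT, 6 higher and 3 lower, where 61.6% of all genes passed (37.6% higher and 24% lower). In cKO 9 passed with the same split, where 58.9% of all genes passed (35.4% higher and 23.5% lower). The median gene fell by 1.27 in WT and by 1.05 in cKO on the deposited log2 scale although summed coverage was alike, so the 5 genes called in the same direction on both scales in both genotypes are given first. On the deposited scale 7 passed in WT, 3 higher and 4 lower, where 72.5% of all genes passed (13.1% higher and 59.3% lower). In cKO 6 passed on that scale, 2 higher and 4 lower, where 69.8% of all genes passed (14.8% higher and 55% lower).

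The 2 strongest increases were in Zc3h12a and Zfp36, both known as feedback genes of inflammatory signalling. Zc3h12a rose by 4.14 ± 0.134 (SE, 17.6-fold, adjusted p = 2.57e-05) in WT and 4.52 ± 0.135 (SE, 22.9-fold, adjusted p = 2.07e-05) in cKO, and by 2.67 and 3.32 on the deposited scale. Zfp36 rose by 3.98 ± 0.131 (SE, 15.8-fold, adjusted p = 2.60e-05) in WT and 3.61 ± 0.132 (SE, 12.2-fold, adjusted p = 3.44e-05) in cKO, and by 2.52 and 2.41 as deposited. Both genes passed under each of the 14 alternatives tried in either genotype.

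The paralogs of Zfp36 moved the other way. Zfp36l2 had a log2 fold change of −3.08 ± 0.308 (SE, 8.43-fold lower, adjusted p = 0.000693) in WT and −1.78 ± 0.308 (SE, 3.44-fold lower, adjusted p = 0.00551) in cKO, and of −4.54 and −2.99 as deposited. Zfp36l1 changed by −1.67 ± 0.2 (SE, adjusted p = 0.00132) in WT and by −1.46 ± 0.201 (SE, adjusted p = 0.00237) in cKO, and by −3.14 and −2.66 as deposited. Tia1 changed by −1.20 ± 0.192 (SE, adjusted p = 0.00374) in WT and by −1.60 ± 0.192 (SE, adjusted p = 0.00151) in cKO, and by −2.67 and −2.80 as deposited. These 3 decreases also passed under all 14 alternatives in both genotypes.

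The remaining 5 genes depended on the scaling. Elavl1 was 2.03 in WT and 1.56 in cKO when scaled, and 0.56 (adjusted p = 0.0142) and 0.36 (adjusted p = 0.0643) as deposited. Hnrnpd was 1.58 and 1.43 when scaled, and 0.11 and 0.23 as deposited, neither of which passed. For Rc3h1 the scaled changes were 1.54 in WT and 1.01 in cKO and the deposited ones 0.08 and −0.19, and for Rc3h2 they were 1.55 and 0.96 against 0.08 and −0.24. Khsrp was near 0 when scaled, −0.06 in WT and 0.26 in cKO (adjusted p = 0.733 and 0.172), and −1.53 (adjusted p = 0.000739) and −0.94 (adjusted p = 0.00501) as deposited. Which of these scales describes the RNA content of the cells was not tested.

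**Figure D3:**
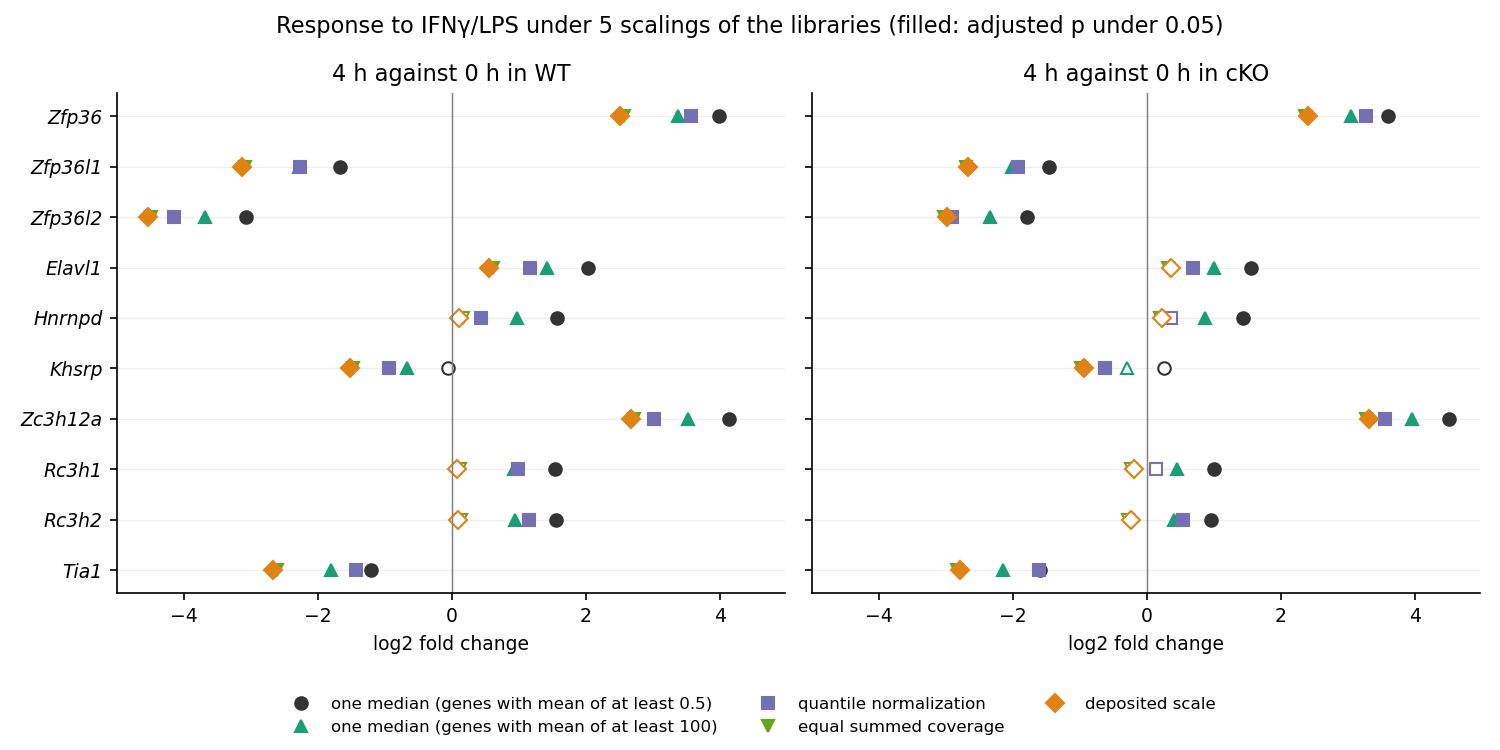
Log2 fold change of the 10 genes at 4 h against 0 h in WT (left) and cKO (right) under 5 scalings of the samples (symbols), filled where the adjusted p was under 0.05. Zfp36 and Zc3h12a lay above 0 and Zfp36l1, Zfp36l2 and Tia1 below 0 under each scaling, whereas Khsrp, Rc3h1 and Rc3h2 fell on both sides of 0 in cKO.

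Genes of the same pathways were taken as a list of 27 other regulators, which includes further RNA-binding proteins, partners of Roquin and Regnase-1, and the p38 kinase arm. At 0 h 1 of 27 was higher and 1 lower in cKO, and at 4 h 3 of 26 tested were higher and 5 lower, where 5.35% and 20.8% of all genes passed. List medians were 0.06 and −0.04 against 0.01 and −0.05 over all genes. On the deposited scale 2 were higher and 2 lower at 0 h, where 5.52% of all genes passed. At 4 h 9 were higher and 2 lower on that scale, where 23.2% of all genes were higher and 4.14% lower. Syncrip, an RNA-binding protein of the hnRNP group, was higher at 0 h by 0.90 ± 0.0902 (SE, adjusted p = 0.0127), with deposited coverage of 1366 and 1397 in WT against 2590 and 2906 in cKO. Fubp1, a relative of Khsrp, was lower by 0.87 at 0 h (log2 fold change −0.87 ± 0.0905 SE, adjusted p = 0.0132) and further at 4 h (−2.03 ± 0.087 SE, adjusted p = 0.000705), where its coverage was 528 and 615 in WT against 186 and 172 in cKO.

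At 4 h the other named regulators on this list were Zc3h12d, Ybx3, Celf1 and Hnrnpab. Zc3h12d, a relative of Zc3h12a, was lower in cKO (−1.51 ± 0.183 SE, adjusted p = 0.00919), as was Celf1, which binds GU-rich elements (−0.77 ± 0.109 SE, adjusted p = 0.013, but −0.41 with adjusted p = 0.054 as deposited). Ybx3 (0.75 ± 0.103 SE, adjusted p = 0.0121) and Hnrnpab, a relative of Hnrnpd (0.49 ± 0.0846 SE, adjusted p = 0.0199), were higher. Celf1 was 0.45 ± 0.113 (SE, adjusted p = 0.0976) at 0 h, higher in cKO without overlap. Its genotype difference changed between the times by −1.22 ± 0.159 (SE, adjusted p = 0.0357), and that of Fubp1 by −1.16 ± 0.128 (SE, adjusted p = 0.024) and of Syncrip by −0.85 ± 0.127 (SE, adjusted p = 0.0493). These were the 3 of the 27 other regulators that passed this test after scaling, where 2.27% of all genes passed, and on the deposited scale the adjusted p of the 3 was 0.0562, 0.065 and 0.109. On that scale 2 others passed in the higher direction, Hnrnpa0 (1.47, adjusted p = 0.0224) and Ybx3 (1.17, adjusted p = 0.0445), the former named after its values were seen.

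Of 24 mRNAs known as targets of these regulators, 1 of 21 tested passed at 0 h, Ccl2, which was higher in cKO, where 5.35% of all genes passed. At 4 h 2 of 24 were higher and 2 lower, where 20.8% of all genes passed, and the list median was −0.06 against −0.05 over all genes. On the deposited scale 5 were higher and 2 lower at 4 h, where 23.2% of all genes were higher and 4.14% lower, with a list median of 0.30 against 0.31 over all genes. Ccl2, a monocyte chemoattractant, was higher at 0 h (2.74 ± 0.193 SE, adjusted p = 0.0045) and 4 h (1.73 ± 0.191 SE, adjusted p = 0.00769), with coverage of 152 and 105 against 831 and 973 at 0 h and 2992 and 3256 against 12778 and 13773 at 4 h. Csf2, which encodes GM-CSF and carries a classical AU-rich element, was listed at 0 in all 4 samples at 0 h. In stimulated cells its coverage was 22.6 and 19.6 in WT against 166 and 211 in cKO (2.79 ± 0.196 SE, adjusted p = 0.0028), with an SE that rests in part on the 4 samples at 0, which have no spread.

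The lower targets at 4 h were Il1b and Icosl, the latter encoding the ligand of ICOS. Il1b had a coverage of 329267 and 227495 in WT against 140741 and 135677 in cKO (−1.35 ± 0.278 SE, adjusted p = 0.031), and Icosl 3291 and 2937 against 1644 and 1497 (−1.35 ± 0.158 SE, adjusted p = 0.00869). Tnf, a target of Zfp36, Rc3h1 and Tia1 alike, was 207348 and 155252 in WT against 209719 and 236747 in cKO at 4 h (−0.05 ± 0.26 SE, adjusted p = 0.915, and 0.31 with adjusted p = 0.344 as deposited). Il6, a target of Zc3h12a, was 11455 and 8601 in WT against 12091 and 12012 in cKO (−0.08 ± 2.06 SE, adjusted p = 0.983, and 0.28 with adjusted p = 0.942 as deposited), with an SE that reflects values at or near 0 before stimulation. Cxcl1 did not pass at 4 h, although its coverage was 2337 and 1342 in WT against 15539 and 18575 in cKO. Its log2 fold change was 2.90 ± 1.8 (SE, adjusted p = 0.303), with an SE that reflects WT values of 7.63 and 0 before stimulation. Tnf, Il6 and Cxcl1 lie outside the rule for named genes and were added after their values were seen.

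**Figure D4:**
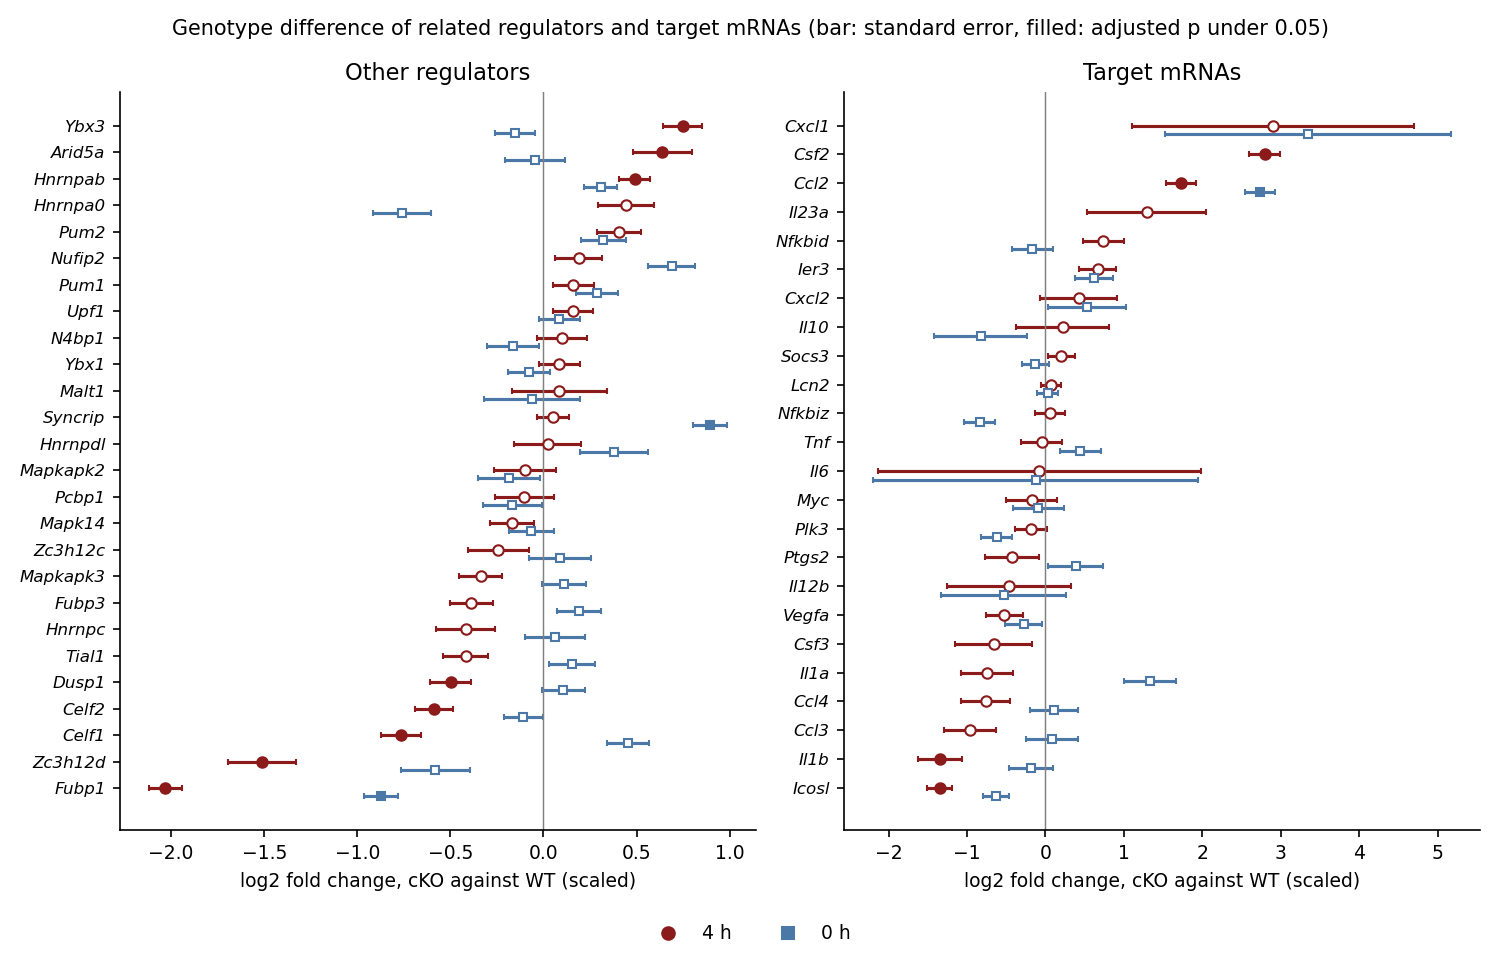
Log2 fold change (scaled) of cKO against WT at 4 h (circles) and 0 h (squares), with the SE as bar, for the tested genes of the list of other regulators (left) and of target mRNAs (right), ordered by the value at 4 h and filled where the adjusted p was under 0.05. Most genes of both lists were open symbols, with Fubp1 and Zc3h12d at the low end and Cxcl1 (open), Csf2 and Ccl2 among the highest.

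With 2 samples a group, an exact permutation test of a single gene cannot go below p = 0.333, so the calls rest on limma's pooled spread over 4 residual degrees of freedom. Data were simulated for the comparison at 4 h over 14506 genes, of which 94 had a log2 change of 1 and 95 of 2. The procedure recovered 29.8% of the changes of 1 and 62.1% of the changes of 2. In the measured data 20.8% of genes passed at 4 h. An adjusted p depends on how many genes change, so how often changes in the regulators are recovered was not tested. The labels do not say that the samples of a group came from separate cultures, so the p-values measure the spread between these samples only.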

How the data were processed

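Reads of 8 paired-end libraries were aligned to GRCm38 (mm10) with HISAT2 2.2.1 and summarised by StringTie 2.1.7, per the submitters' processing notes. The deposited tables of the authors hold a coverage signal, the mean read depth per base of each gene in each sample, with no scaling between samples. Raw read depth was not used here. Their columns of fold changes, p-values and classes were not used. The 0 h samples were taken as untreated from their titles, although their treatment tag names IFNγ/LPS.

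Each sample was scaled to the same median over the 16284 genes whose mean coverage reached 0.5, and log2(coverage + 0.1) was fitted with limma 3.58.1 in R 4.3.3 over 4 groups and 8 samples, without a replicate block. Genes with a mean deposited coverage of at least 0.5 in the samples of a contrast were tested, at a Benjamini-Hochberg adjusted p under 0.05. Fold changes are on the log2(coverage + 0.1) scale, which understates the change of low genes. The procedure was tested on simulated data. All 10 members and Nudt21 were named, and up to 5 called genes with the smallest adjusted p from each further list and genotype comparison. Members and lists were chosen with earlier results of these data known. Alternatives were other scalings, pseudocounts, filters, variance trends, sample subsets and the study's rule (fold change above 1.5 and p under 0.05). Sequences and positions come from GENCODE M21 (GRCm38), by symbol.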

Additional observations from a re-analysis of the deposited data

How the results depend on the processing

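The increases of Zfp36 and Zc3h12a and the decreases of Zfp36l1, Zfp36l2 and Tia1 with stimulation kept their direction and passed under every alternative tried, in both genotypes. Of the 10 regulators, the number called at 0 h was 3 with quantile normalization or a variance trend (1612 and 1607 of all genes). It was 2 with a minimum mean of 1 (871 of all genes) or under the study's rule (2066 of all genes). It was 0 with only the samples of that time (168 of all genes). At 4 h it was 5 on the deposited scale (4092 of all genes), 4 with a variance trend (4095), 3 with equal summed coverage (2653) or under the study's rule (3356) and 0 with only the samples of that time (238 of all genes). For the difference between the times, a variance trend gave 1 (1147 of all genes) and the study's rule 2 (2661 of all genes).

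Signs also moved. At 0 h Zfp36 was −0.01 with equal summed coverage (−0.008651) and with the median over genes with a mean of at least 100 (−0.007648), a scaling added after seeing the data. At 4 h the deposited scale gave 0.00 (0.003524) for Zfp36, 0.24 for Zfp36l1 and 0.25 for Rc3h2, and equal summed coverage 0.03 (0.02515) for Zfp36l1 and 0.04 (0.04299) for Rc3h2. With stimulation in cKO, Khsrp was −0.94 as deposited, −0.98 with equal summed coverage, −0.62 with quantile normalization and −0.29 with the median over genes of at least 100, Rc3h1 −0.19 and −0.23, and Rc3h2 −0.24 and −0.28, on the deposited scale and with equal summed coverage. The change of the genotype difference in Hnrnpd was 0.12 and 0.03 (0.03004) on those scales. The cause was not tested.

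Leaving out one sample at a time gave 403 (without cKO 4) to 643 genes at 0 h, 548 without WT 1 and 490 without cKO 3, with 0 to 1 regulators. At 4 h it gave 872 (without cKO 4) to 3124 genes, 1485 without cKO 3, with 0 to 2 regulators. For the difference between the times it gave 208 (without cKO 4 at 4 h) to 590 genes (without WT 2 at 4 h), 218 and 213 without cKO 3 and cKO 4 at 0 h. Zfp36 then ranged from −0.12 to 0.16 and Khsrp from −0.07 (−0.06713) to 0.31 at 0 h, Zfp36l1 from −0.32 to 0.08 (0.07669) and Elavl1 from −0.20 to 0.28 at 4 h, and Khsrp with stimulation in WT from −0.25 to 0.13.

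The sample numbers were not used to pair samples, because the labels do not say whether they mark the same mice. The paper describes 2 WT and 2 cKO samples of pooled cells, without saying whether both times came from the same pools. Same-numbered samples of the 2 times did not deviate together (r = 0.021 in WT and 0.0232 in cKO, across genes). A replicate block left 9055 and 8556 genes called for stimulation in WT and cKO, 9 regulators in each, and 30 genes, none of them a regulator, for the difference between the times. DESeq2 and edgeR were not run, since coverage is no count. Log2 changes below 1 were not simulated. With 4 residual degrees of freedom, how often changes of the size seen in most of the 10 genes are missed was not tested.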

Other observations

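With stimulation, 22 of the 24 target mRNAs rose and 2 fell in both genotypes after scaling. List medians were 8.91 in WT and 9.79 in cKO against 0.17 and 0.13 over all genes. Csf2 and Csf3 were at 0 in every 0 h sample, and deposited Il23a was 0 in cKO and 1.37 and 0.296 in WT. These genes passed the filter only through the stimulated samples, and the size of their rises depends on the added 0.1. They are included in the count and the medians. Of all genes 37.6% were higher and 24% lower in WT, and 35.4% and 23.5% in cKO. Myc fell by 1.06 in WT and by 1.15 in cKO, and Vegfa by 0.74 and by 0.99, and both were lower on the deposited scale too. Among the other regulators, Zc3h12c, a relative of Zc3h12a, rose by 4.24 in WT and 3.91 in cKO, Arid5a, known to stabilise Il6 mRNA, by 4.47 and 5.16, and Malt1, a protease that cleaves Regnase-1 and Roquins, by 5.29 and 5.43, each passing limma's test on both scales. These genes were singled out after their values were seen.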
